A study of Rattus norvegicus with 6 samples.

Results

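The transcripts described here encode 10 rat enzymes that oxidize alcohols, oxidize aldehydes or reduce carbonyl groups: the alcohol dehydrogenases Adh1, Adh5 and Adh7, the aldehyde dehydrogenases Aldh1a1, Aldh1a3, Aldh2, Aldh3a1 and Aldh3a2, and the aldo-keto reductases Akr1c14 and Akr1b8. A probe belonged to the set when its accession matched the RefSeq entry of a member gene. This gave 11 of the 30367 probes on the array and 10 of the 15168 genes that could be named. Aldh3a2 had 2 probes and every other gene had 1. Adh1 carries the symbol Adh1c in the current RefSeq naming. All 11 probes are among the 23997 of the deposited table, and all of them were well above background on all 6 arrays, so no member entered the table through one strain alone.

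Colon RNA from 3 rats of the S strain (S1, S2, S3) and 3 of the S.LEW congenic strain (C1, C2, C3) was measured on single-color Agilent oligonucleotide arrays, with 1 array per rat. S is the inbred Dahl salt-sensitive rat (SS/Jr), which is prone to hypertension, and the S.LEW congenic strain, S.LEW(10)x12x2x3x5, carries a short piece of chromosome 10 from the Lewis rat on the S background. The comparison asks which colon transcripts differ between the strains after exposure to a carcinogen. All 6 rats were males on a low-salt diet (0.3% NaCl). All received azoxymethane (AOM), a chemical that induces colon tumors in rodents, at 15 mg per kg in each of 2 intraperitoneal injections that began at 6 weeks of age, and all were 30 weeks old at collection. No rat without AOM was analysed here, so every value is from a treated colon. Each strain is an inbred line, the RNA is from whole colon tissue rather than sorted cells, and the labels do not say how much tumor each piece held. The rats are separate animals, and each p-value therefore refers to the spread between rats within the strains. The main test, limma, draws that spread toward the one typical of all probes.

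Alcohol dehydrogenases oxidize alcohols such as ethanol and retinol to aldehydes with NAD, aldehyde dehydrogenases carry aldehydes on to acids, retinal to retinoic acid among them, and aldo-keto reductases run the other way, reducing aldehydes, ketones and steroids with NADPH. In the gut mucosa these enzymes handle dietary and microbial alcohols, lipid peroxidation products and retinoids. AOM is hydroxylated, mainly by the cytochrome Cyp2e1, to methylazoxymethanol, which is itself an alcohol that alcohol dehydrogenases can oxidize.

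The values are the normalized log2 signals deposited for each array, and a difference of 1 is a 2-fold change. The share of spots well above background ran from 73.8% to 87.6% per array, and the arrays correlated with each other at Pearson r between 0.9 and 0.98 across probes. The arrays did not fall apart by strain. S2 correlated with the 3 congenic arrays at 0.967 to 0.976, but with S1 and S3 at 0.9 and 0.937. The 5 lymphocyte markers in the table, Cd3g and Ptprc the brightest of them, had a log2 summed signal of 15.6 in S1 and 15.19 in S3, of 9.78 in S2, and of 9.23 to 9.68 in the congenic rats. Results that rest on S1 and S3 are therefore also given without these rats. Colon epithelium markers were present in all 6 rats, led by Lgals4 and Guca2a. Of 10 hepatocyte markers on the array, 4 were in the table and none was called, and the log2 of their summed signal was 7.67 to 8.2 over the 6 rats. C1 and the 3 S arrays shared a scan, and C2 and C3 shared another.

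Akr1b8, Akr1c14 and Aldh1a1 were higher in the colons of the S.LEW congenic rats than in those of the S rats, by 3.9-fold, 3.32-fold and 2.83-fold, and Aldh3a1 was lower in the congenic strain, with an S level 8.2-fold above the congenic level. The Aldh3a1 call was lost with the methods' t-test, with the scan as a block and with any rat but S2 left out, and its log2 fold change was -0.39 without S1 and S3, against -3.04 with all rats. Without S1 and S3 the log2 fold changes of Akr1b8, Akr1c14 and Aldh1a1 were 1.88, 0.96 and 0.64. With all rats they were 1.96, 1.73 and 1.5. The other 6 genes did not pass both cut-offs, an unadjusted limma p under 0.05 and a 2-fold difference. These cut-offs called 3 of the 10 genes higher, against 3.23% of all 23997 probes, and 1 of 10 lower, against 2.34% of all probes. At the stricter cut-offs of p under 0.005 and 2.5-fold, Akr1b8 alone of the 10 was higher, against 0.704% of all probes. At an unadjusted p under 0.05 with no fold cut-off, limma passed 6 of the 10 genes and the methods' t-test also passed 6 (5 of them in common), against 13% of all probes with limma. By the methods' t-test 10.8% of all probes passed. After Benjamini-Hochberg adjustment over all 23997 probes, no member reached an adjusted p under 0.05 with limma and neither did any other probe (0%). The lowest adjusted p among the members was 0.194, that of Akr1b8, and 0.279 with the methods' t-test. In 6 of the 10 genes all 3 congenic rats lay above all 3 S rats, which was so for 12.4% of all probes, and in 1 gene all congenic rats lay below, which was so for 5.33%. The median log2 fold change of the 10 genes was 0.55, beside 0.01 over all probes. The genes were picked with results from these arrays known, so these counts describe them and are not independent evidence.

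**Figure D1:**
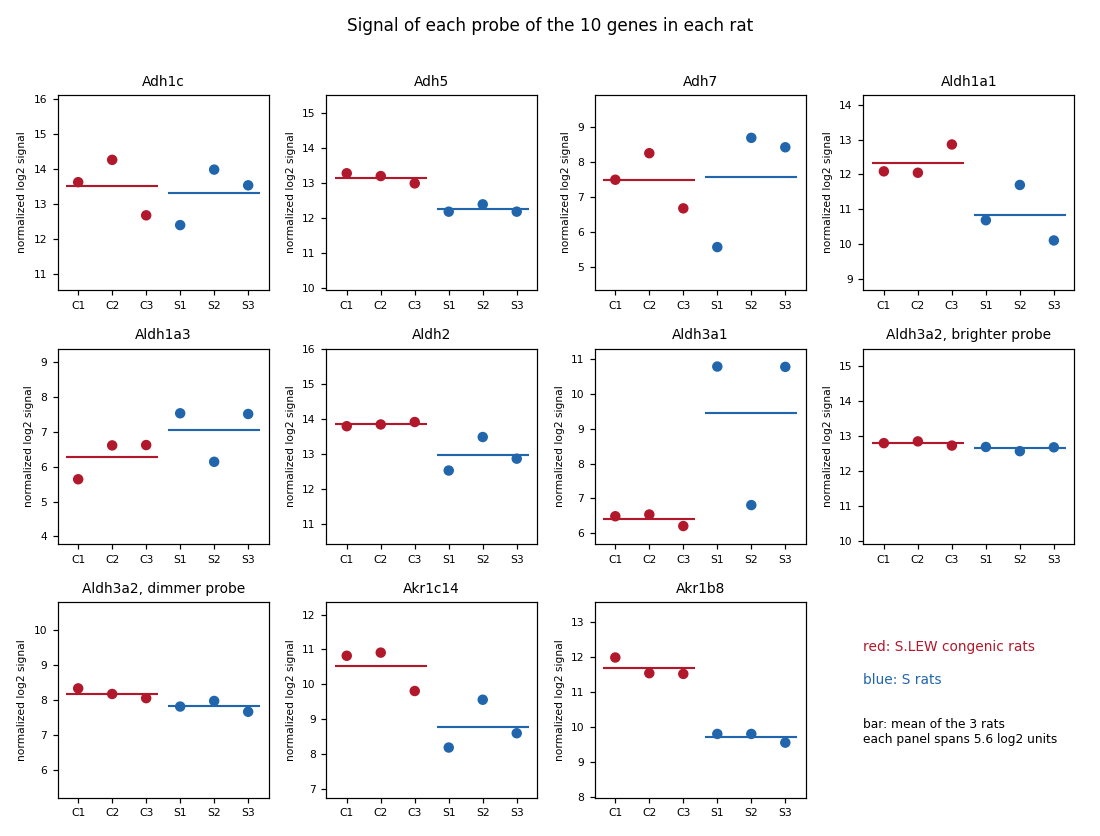
Normalized log2 signal (y axis, each panel spanning the same number of log2 units) of each of the 11 member probes in the congenic rats C1 to C3 (red) and the S rats S1 to S3 (blue), with bars at the mean of the 3 rats. Akr1b8 and Adh5 show tight groups that lie apart, Aldh3a1 is high in S1 and S3 but not in S2, and Adh1c and Adh7 overlap between the strains.

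The bases upstream of the transcription start are shown for the 3 genes that were higher and for Adh5, the member alcohol dehydrogenase whose strains lay apart, as examples. The windows of the other members were searched in the same way. They are the 250 bases before the start in the RefSeq annotation of GRCr8, written 5′ to 3′ on the strand of the gene, with capitals marking CCAAT and GGGCGG (the core of a CCAAT box and of a GC box) on either strand.
Akr1b8, chr4:63964171-63964420, + strand: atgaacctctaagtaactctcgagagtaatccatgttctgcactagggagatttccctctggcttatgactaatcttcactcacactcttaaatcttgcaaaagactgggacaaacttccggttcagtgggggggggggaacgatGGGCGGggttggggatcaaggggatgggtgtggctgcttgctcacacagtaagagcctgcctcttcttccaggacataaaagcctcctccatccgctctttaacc
Akr1c14, chr17:71083185-71083434, - strand: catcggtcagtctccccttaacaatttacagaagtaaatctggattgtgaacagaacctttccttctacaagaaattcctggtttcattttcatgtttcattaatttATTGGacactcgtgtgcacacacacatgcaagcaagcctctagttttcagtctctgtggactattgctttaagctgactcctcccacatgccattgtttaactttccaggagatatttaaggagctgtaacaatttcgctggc
Aldh1a1, chr1:227537370-227537619, + strand: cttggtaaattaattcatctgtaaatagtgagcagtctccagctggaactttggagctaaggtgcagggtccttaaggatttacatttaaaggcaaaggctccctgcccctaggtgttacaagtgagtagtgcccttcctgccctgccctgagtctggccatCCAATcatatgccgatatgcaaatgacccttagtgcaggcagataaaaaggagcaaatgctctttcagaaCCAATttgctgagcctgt
Adh5, chr2:229648307-229648556, + strand: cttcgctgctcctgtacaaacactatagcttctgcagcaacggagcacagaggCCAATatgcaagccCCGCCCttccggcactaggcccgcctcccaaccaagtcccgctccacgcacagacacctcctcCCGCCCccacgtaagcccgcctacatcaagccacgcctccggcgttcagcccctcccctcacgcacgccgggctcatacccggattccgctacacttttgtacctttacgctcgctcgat

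Of the 10 genes, 8 had an entry in the promoter table, and Aldh2 and Aldh3a1 did not. CCAAT was found in 6 of these 8 windows, against 34% of 33469 rat promoter windows of the same length, and GGGCGG in 5 of 8, against 30.5%. Akr1c14 and Aldh1a1 held CCAAT, at 139 to 143 bases before the start in Akr1c14 and with a match ending 14 bases before the start in Aldh1a1. Akr1b8 held GGGCGG, 100 to 105 bases before the start, and Adh5 held both motifs. TATAAA was in none of the 8 windows and in 12.9% of all promoters, and TGACNNNGC, the core of the antioxidant response element bound by Nrf2, was in none of the 8 and in 10.1% of all promoters. The motifs do not overlap in these windows. The GC content was 62.4% in Adh5 and 50.8% in Akr1b8, but 40.4% in Akr1c14 and 46.4% in Aldh1a1, beside a median of 51.2% over all promoters. None of the 4 motifs was present in this window of all 3 genes that were higher. A match is a description of the letters and not of a bound site.

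Of the 3 member alcohol dehydrogenases, Adh5 was the gene whose strains lay apart. Adh5 is the glutathione-dependent formaldehyde dehydrogenase, which also clears S-nitrosoglutathione. It read 13.28, 13.2 and 12.99 in C1, C2 and C3, and 12.18, 12.39 and 12.18 in S1, S2 and S3, in log2 signal. All 3 congenic rats lay above all 3 S rats, with a gap of 0.6 between the nearest rats of the strains. S2 was the highest of the S rats, which spanned 0.21. The means were 13.16 ± 0.15 (SD, n = 3) in the congenic strain and 12.25 ± 0.12 (SD, n = 3) in S. The congenic strain was 1.88-fold higher (log2 fold change 0.91, 95% confidence interval 0.48 to 1.34, adjusted p = 0.218 in limma), just under the 2-fold cut-off. With the scan as a block, and within the scan that held both strains, the log2 fold change was 1.03. Both fits equal C1, the highest congenic rat, against the S rats. Without S1 and S3 the log2 fold change was 0.77.

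Adh1, an alcohol dehydrogenase that oxidizes ethanol and retinol in liver and gut, varied among rats of the same strain. It read 13.62, 14.26 and 12.67 in C1, C2 and C3, and 12.39, 13.98 and 13.53 in S1, S2 and S3. The strains overlapped, with C3 and S1 the lowest rats of their strains. The log2 fold change was 0.22 with a 95% confidence interval from -1.1 to 1.53 (limma adjusted p = 0.858). Adh7, a retinol-oxidizing alcohol dehydrogenase of the upper digestive tract, read 7.5, 8.26 and 6.68 in C1, C2 and C3, and 5.57, 8.7 and 8.43 in S1, S2 and S3. Again C3 and S1 were the lowest of their strains and the strains overlapped. The S rats spanned 3.13 log2 units and the congenic rats 1.58, and the log2 fold change was -0.09 (95% confidence interval -2.22 to 2.04). Adh7, Adh1c and Adh5 lie in that order on chromosome 2, with no protein-coding gene between Adh7 and Adh1c. After centering each gene on its mean over the 6 arrays, Adh1c and Adh7 differed by a root mean square of 0.57 log2 units. Adh1c and Adh5 differed by 0.68 and Adh5 and Adh7 by 1.16. Some members on different chromosomes differed by less, such as Adh5 and Aldh2 at 0.25. These values are given as a description of 6 arrays. For Adh1c and Adh7 the direction between the strains turned when single rats were left out, and a difference of several-fold in either direction lies inside the interval of Adh7.

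The aldehyde dehydrogenases differed in direction. Aldh1a1 and Aldh2 were higher in every congenic rat, Aldh3a1 was lower in every congenic rat, Aldh3a2 differed little, and Aldh1a3 overlapped. Aldh1a1, a cytosolic enzyme that converts retinal to retinoic acid, read 12.09, 12.05 and 12.86 in C1, C2 and C3, and 10.69, 11.7 and 10.11 in S1, S2 and S3. The lowest congenic rat, C2, lay 0.35 above the highest S rat, S2. The means were 12.34 ± 0.46 (SD, n = 3) and 10.83 ± 0.8 (SD, n = 3), a log2 fold change of 1.5 (SE 0.45, limma adjusted p = 0.315). With the scan as a block, which equals C1 against the S rats, the log2 fold change was 1.26 and the unadjusted limma p 0.121. Without S1 and S3 it was 0.64. In both of these fits the p missed the cut-off, whereas Aldh1a1 passed with any single rat left out.

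Aldh2, the mitochondrial enzyme that clears acetaldehyde, read 13.79, 13.84 and 13.91 in C1, C2 and C3, a span of 0.12. The S rats read 12.52, 13.48 and 12.86 and spanned 0.96, with S2 the nearest to the congenic rats and 0.31 below the lowest of them. The congenic strain was 1.86-fold higher (log2 fold change 0.89, SE 0.27, limma adjusted p = 0.32), below the 2-fold cut-off. Without S1 and S3 the log2 fold change was 0.36. The pattern of Aldh2 over the 6 arrays was the closest of any member pair to that of Adh5, with a root mean square difference of 0.25 after centering.

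Aldh3a1, a cytosolic enzyme that oxidizes aldehydes from lipid peroxidation and is abundant in cornea and stomach, had the widest spread of the set. It read 6.49, 6.54 and 6.21 in C1, C2 and C3, and 10.78, 6.81 and 10.77 in S1, S2 and S3. S1 and S3 were more than 4 log2 units above every congenic rat, whereas S2 was 0.27 above the highest of them. The means were 6.42 ± 0.18 (SD, n = 3) in the congenic strain and 9.45 ± 2.29 (SD, n = 3) in S, a log2 fold change of -3.04 with a 95% confidence interval from -5.59 to -0.48 (limma adjusted p = 0.348). The methods' t-test gave an unadjusted p of 0.0837, and the unadjusted limma p was 0.128 with the scan as a block. Without S1 and S3 the log2 fold change was -0.39 and missed the p cut-off, and without S2 it was -4.36. The lymphocyte markers were high in the same rats, S1 and S3. Of the 10 such markers on the array 5 were in the table, 4 of these 5 were called lower in the congenic strain, and their median log2 fold change was -3.43. Of the 5 stratified squamous markers in the table none was called, and their median log2 fold change was 0.26. The part of either cell type in the Aldh3a1 result was not tested. Since the colon was measured whole, fewer cells of a type and less RNA per cell cannot be told apart, here and for every gene of the set.

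Aldh1a3, which also makes retinoic acid, read 5.64, 6.61 and 6.62 in C1, C2 and C3, and 7.53, 6.14 and 7.51 in S1, S2 and S3. S1 and S3 were again the highest rats and S2 lay among the congenic rats, so the strains overlapped. The log2 fold change was -0.77 (95% confidence interval -1.91 to 0.37, limma adjusted p = 0.484), and without S1 and S3 it was 0.15. Aldh3a2, the fatty aldehyde dehydrogenase of the endoplasmic reticulum, was measured by 2 probes. The brighter probe read 12.79, 12.84 and 12.72 in the congenic rats and 12.68, 12.56 and 12.67 in the S rats. The dimmer probe read 8.34, 8.18 and 8.06 in the congenic rats and 7.82, 7.98 and 7.67 in the S rats. On both probes every congenic rat lay above every S rat, with gaps of 0.04 and 0.08, and the log2 fold changes were 0.14 and 0.37, with 95% confidence intervals of -0.24 to 0.53 and -0.07 to 0.8. The unadjusted p of the brighter and dimmer probe was 0.397 and 0.0873 in limma, and 0.0454 and 0.0378 in the methods' t-test. Aldh3a1 and Aldh3a2 are neighbors on chromosome 10 with no protein-coding gene between them, and their mean differences have opposite signs. Both are on the chromosome that carries the Lewis segment, but 418 protein-coding genes lie between Aldh3a1 and Rffl, the protein-coding gene of the segment.

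**Figure D2:**
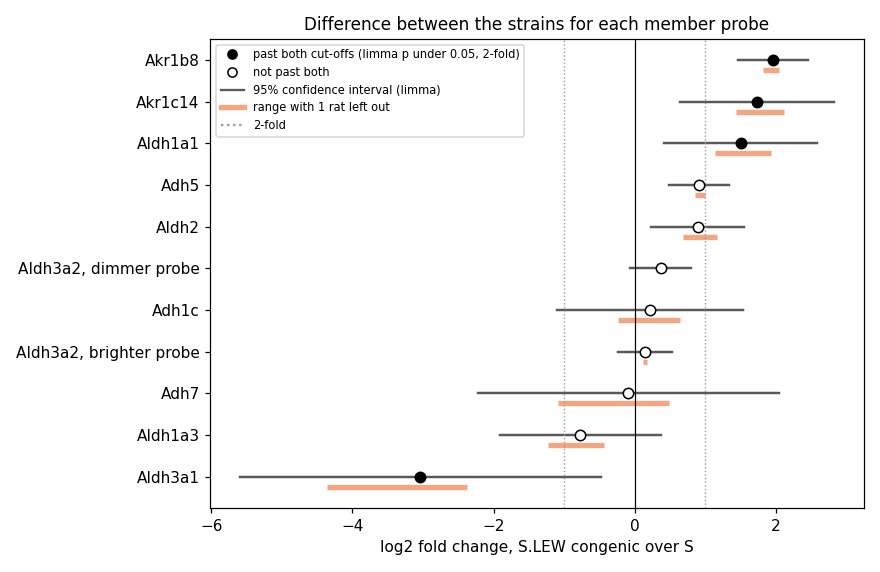
Log2 fold change of each member probe, S.LEW congenic over S (x axis), with its 95% confidence interval from limma (grey) and, for the 10 probes that stand for a gene, the range of values with 1 rat left out (orange); filled points passed the p and 2-fold cut-offs. Akr1b8 at 1.96 has a short interval and range, and Aldh3a1 at -3.04 has the longest interval.

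Both aldo-keto reductases were higher in the congenic strain. Akr1b8, an aldose reductase-like enzyme that reduces aldehydes, read 11.99, 11.54 and 11.52 in C1, C2 and C3, and 9.8, 9.8 and 9.55 in S1, S2 and S3. The strains lay 1.71 log2 units apart at their nearest rats, more than the 0.47 that the congenic rats and the 0.25 that the S rats spanned. S2 was at the level of the other S rats here. The means were 11.68 ± 0.27 (SD, n = 3) and 9.72 ± 0.15 (SD, n = 3), a log2 fold change of 1.96 (SE 0.21, 95% confidence interval 1.46 to 2.46, limma adjusted p = 0.194). It was 1.88 without S1 and S3 and 2.27 within the scan that held both strains. Under all 19 alternative settings the value lay between 1.81 and 2.27 and passed the cut-offs. The 3 genes with the most similar pattern over the 6 arrays were Nlrp6, Slc4a4 and Trpm4, with a root mean square difference of 0.131, 0.143 and 0.174 log2 units after centering, and their log2 fold changes were 1.98, 1.78 and 1.77.

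Akr1c14, a hydroxysteroid dehydrogenase that inactivates steroid hormones and reduces other carbonyls, was read by 10 spots on each array. Their mean was 10.82, 10.91 and 9.81 in C1, C2 and C3, and 8.19, 9.56 and 8.6 in S1, S2 and S3. The lowest congenic rat, C3, lay 0.25 above the highest S rat, S2. The congenic strain was 3.32-fold higher (log2 fold change 1.73, SE 0.45, 95% confidence interval 0.64 to 2.82, limma adjusted p = 0.276). Within the scan that held both strains the log2 fold change was 2.04, and without S1 and S3 it was 0.96 and missed the p cut-off. The Akr1c genes form a cluster of closely related copies, and Akr1b8 lies next to its relative Akr1b10 on chromosome 4, so a probe may read more than its own gene and these values are uncertain to that degree. The probe of Akr1b10 is outside the table and was well above background on 1 S array and no congenic array.

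Most epithelial markers had a mean difference of the same sign as most of the set, as did the smooth muscle, adipocyte and fibroblast markers. Of the 13 colon epithelium markers on the array all were in the table, and 12 had a higher mean in the congenic strain. Their median log2 fold change was 0.81, 2 passed the cut-offs as higher and none as lower. Their log2 summed signal was 17.73 to 18.12 in the congenic rats and 16.99 to 17.19 in the S rats, S2 included. The log2 fold changes of the 13 markers ran from -1 to 1.07. Smooth muscle markers had a log2 summed signal of 19.16 to 19.33 in the congenic rats, 17.53 in S1, 19.39 in S2 and 18.57 in S3. Goblet cell markers had 1 of 6 called higher and fibroblast markers none of 8 called. Adipocyte markers had 2 of 6 called higher and skeletal muscle markers 3 of 8 called lower. Of the 8 smooth muscle markers 1 was called higher. All 8 smooth muscle, 6 adipocyte and 8 fibroblast markers had a higher mean in the congenic strain. However, the strains overlapped in all 8 smooth muscle and all 8 fibroblast markers, and in 2 of the 6 adipocyte markers. Of all probes, 51.3% had a log2 fold change above 0, 3.23% were called higher and 2.34% lower. The median log2 fold change was 0.95 for smooth muscle, 1.18 for adipocyte and 0.33 for fibroblast markers. It was 0.43 for goblet cell and -1.08 for skeletal muscle markers. The part of these cell types in the levels of the 10 genes was not tested.

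**Figure D3:**
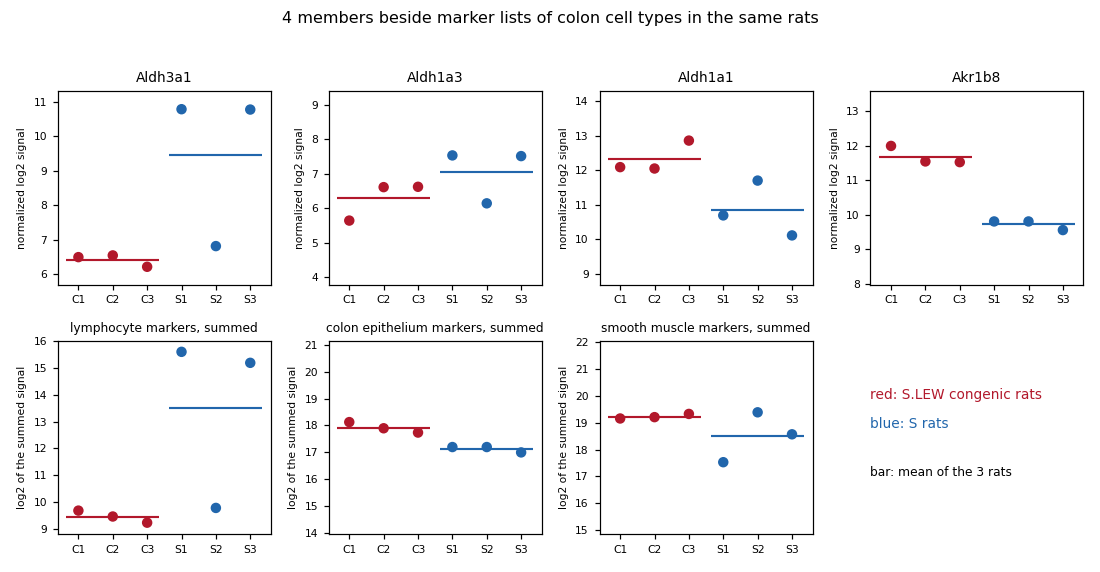
Top row: normalized log2 signal of Aldh3a1, Aldh1a3, Aldh1a1 and Akr1b8 in each rat. Bottom row: log2 of the summed signal of the lymphocyte, colon epithelium and smooth muscle markers in the same rats (red, congenic; blue, S; bars, means of 3 rats). Aldh3a1 and the lymphocyte markers are both high in S1 and S3 and low in S2, while Akr1b8 and the epithelium markers separate all 3 S rats from the congenic rats.

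The other enzymes of the families were measured to place these 10 among their relatives. Of 3 other alcohol dehydrogenases in the table none was called, and their median log2 fold change was -0.2. In 1 of them, the sorbitol dehydrogenase Sord, named after its values were seen, all congenic rats lay above all S rats (log2 fold change 0.98, limma adjusted p = 0.299). Of 10 other aldehyde dehydrogenases all had a log2 fold change above 0, with a median of 0.28, but in 6 of them the strains overlapped. Aldh1a2, Aldh3b1 and Aldh16a1 hardly differed, at 0.01, 0.01 and 0.05. Only 1 was called: Aldh1b1, a mitochondrial enzyme close to Aldh2. Aldh1b1 read from 10.64 to 10.82 over the congenic rats and from 8.4 to 9.56 over the S rats, with no overlap (log2 fold change 1.71, SE 0.31, limma adjusted p = 0.205). Of 11 other aldo-keto reductases 8 had a higher mean in the congenic strain, with a median of 0.77, and 2 were called higher. Akr1c12, separated from Akr1c14 by 1 protein-coding gene on chromosome 17, read 8.02 to 8.67 in the congenic rats and 6.86 to 7.09 in the S rats (log2 fold change 1.41). Akr7a3, an aflatoxin aldehyde reductase, read 11.73 to 12.25 against 10.63 to 10.87 (log2 fold change 1.2). Both had a limma adjusted p of 0.205. Aldh1b1, Akr1c12 and Akr7a3 stayed past the cut-offs without S1 and S3, at 1.61, 1.32 and 1.07. Over the 34 tested genes of the 3 families, 6 were called higher and 1, Aldh3a1, was called lower. Their median log2 fold change was 0.42, and 26 were above 0. Of all probes, 51.3% had a log2 fold change above 0, 3.23% were called higher and 2.34% lower.

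Of 27 retinoid-handling genes outside the set, 2 were called higher and none lower, and the median log2 fold change was 0.21. They were Bco1, which cleaves beta-carotene to retinal (log2 fold change 1.27), and Rbp7, a cellular retinol-binding protein (1.02), both with a limma adjusted p of 0.228. They were 0.94 and 1.13 without S1 and S3. Of 5 measured genes of AOM oxidation and DNA repair none was called. No array read Cyp2e1 well above background, and Mgmt, which removes methyl groups from guanine, had a log2 fold change of -0.96 (limma adjusted p = 0.338). Mgmt read 9.77 in S1 and 9.52 in S3 but 8.65 in S2, and its log2 fold change was -0.29 without S1 and S3. These 2 genes were named for their roles after the values were seen. Nrf2 is the factor that responds to oxidants and electrophiles. Of 24 genes on a list of its targets, 5 were called higher and 1 lower, and the median log2 fold change was 0.54. The list also holds the gene of Nrf2 itself, Nfe2l2, and that of its inhibitor, Keap1, and neither was called. Beside the counts of these lists, 3.23% of all probes were called higher and 2.34% lower. The 5 were the glutathione transferase Gsta4 (1.43), the carbonyl reductase Cbr1 (1.27), malic enzyme Me1 (1.27), the exporter Abcc3 (1.25) and glutathione reductase Gsr (1.14). The gene called lower was the cystine transporter Slc7a11 (-1.91), which read 8.39 in S1 and 7.63 in S3 but 5.77 in S2, and 5.09 to 5.5 in the congenic rats. Adjusted limma p-values of the 6 ran from 0.196 to 0.357. When S1 and S3 were left out, Gsta4 and Cbr1 were past the cut-offs, both at 1.1, and Me1, Abcc3, Gsr and Slc7a11 were not, at 0.6, 0.71, 0.42 and -0.42.

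**Figure D4:**
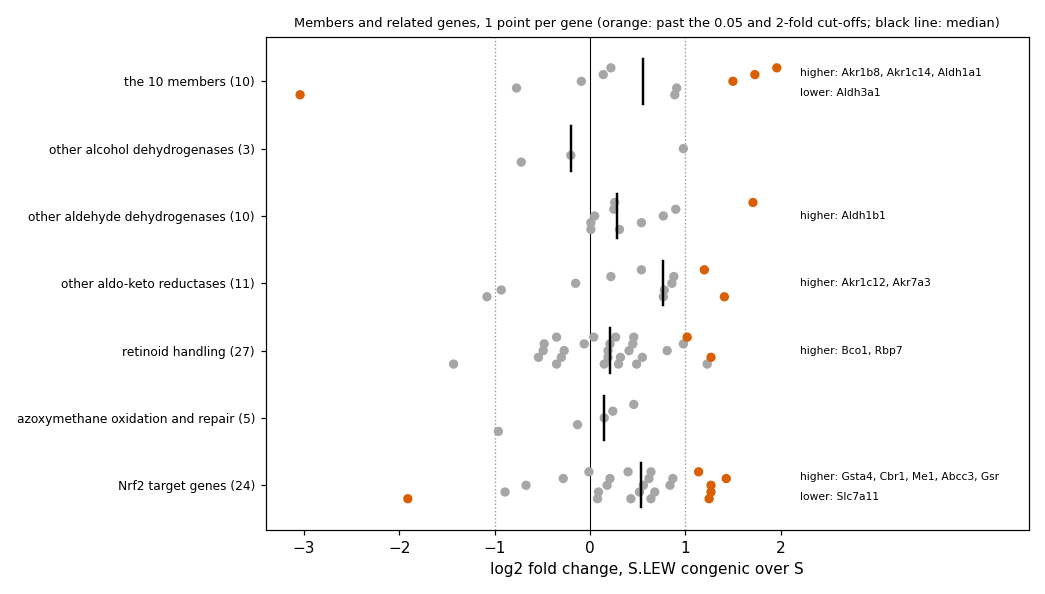
Log2 fold change, S.LEW congenic over S (x axis), of the 10 members and of the tested genes of 6 related lists (rows, number of genes in brackets), 1 point per gene; orange points passed the p and 2-fold cut-offs and are named at the right, and black lines are medians. The medians are 0.55 for the members, 0.77 for the other aldo-keto reductases and 0.54 for the Nrf2 list, and Aldh3a1 is the lowest point. The Nrf2 list holds Nfe2l2 and Keap1 beside the targets.

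For each of the 7 genes whose strains did not overlap, the two-sided exact permutation test gave p = 0.1, the smallest value that 3 rats against 3 can give, and for Adh1c, Adh7 and Aldh1a3 it gave 0.7, 0.9 and 0.3. The number of adjusted calls depended on 1 rat. Without S2, 6 of the 10 genes (Adh5, Aldh1a1, Aldh2, Aldh3a1, Akr1c14 and Akr1b8) had a limma adjusted p under 0.05, as did 23.1% of all probes. Without S1 and S3, Akr1b8 was the only member past the 2-fold and p cut-offs, which then called 1.88% of all probes higher and 1.99% lower.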

How the data were processed

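Colon RNA of 3 S.LEW congenic and 3 S rats was hybridized to 1 single-color Agilent array each. Per the labels and methods, the authors analysed the scans with Feature Extraction 11.0.1.1, so that the deposited scanner files hold 1 background-corrected intensity per spot. Quantile normalization by the authors in GeneSpring GX followed, with a filter for detection in 3 or more of the 6 samples, and the deposited log2 values cover 23997 of 30367 probes. The table was used as deposited. It correlated with quantile-normalized log2 intensities of the scanner files at r of at least 0.99991, and the scanner files gave accessions and background flags. Median intensities were 214 to 594 per array. No spot was saturated. The precision is limited by the number of arrays.

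Accessions were matched to RefSeq genes of GRCr8 (18005 probes, 15168 genes), and a gene stands by its brightest tested probe. Strains were compared with limma 3.58.1 (R 4.3.3, lmFit and eBayes, no covariates), fitted and adjusted (Benjamini-Hochberg) over all 23997 probes. Calls used the cut-offs of the methods, unadjusted p under 0.05 with 2-fold, and p under 0.005 with 2.5-fold. The fit was tested on simulated data. Summed marker signals are sums of unlogged table values. Promoters came from RefSeq (GRCr8), with motifs searched on both strands. Plots were drawn with matplotlib 3.10.9.

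The text names every member, the genes of each related list that passed the 2-fold cut-off (up to 5 in each direction), the 2 brightest markers of a described list, and the 3 genes most like the member with the lowest p. Members and lists were chosen with earlier results of these data known. Alternatives were the scanner values with quantile, 75th percentile or normexp (offset 50) processing, background filters, the methods' t-test, array weights, the scan or the replicate number as a block, other probes of a gene, and leaving out each rat. Leaving out S1 and S3 together was added after seeing the data. The paper housed each S rat in a cage with a congenic rat. The labels do not give the cages, so whether rats of the same number share more than the number is not known.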

Additional observations from a re-analysis of the deposited data

Results flagged for a closer look

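Adhfe1, an alcohol dehydrogenase with an iron center, has a probe that is not in the deposited table and was therefore not compared above. From the scanner files its quantile-normalized log2 signal was 5.96, 4.84 and 5.42 in C1, C2 and C3, a mean of 5.41, and it was well above background on 2 of these arrays. In S1, S2 and S3 it was 2.31, 2.36 and 3.48 and not well above background on any. It is listed because it was well above background on at least 2 congenic arrays and on no S array. The direction of its difference was therefore part of the rule. A probe of the aldo-keto reductase Akr1c3, also outside the table, showed the reverse. It was well above background on 2 S arrays and no congenic array. That probe read 3.17, 3.08 and 3.61 in C1, C2 and C3, and 5.1, 3.97 and 3.79 in S1, S2 and S3. Another Akr1c3 probe outside the table was well above background on no array and had the opposite direction. It read 3.69, 3.38 and 2.94 in C1, C2 and C3, and 2.39, 2.43 and 2.26 in S1, S2 and S3.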

How the results depend on the processing

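Akr1b8 passed the cut-offs in all 19 alternatives. The direction turned only for genes that were not called: Adh1c was -0.46 and Aldh1a3 0.15 without S1 and S3, and with single rats left out Adh1c ranged from -0.24 to 0.64 and Adh7 from -1.09 to 0.48. Without S1 and S3, 1 member and 6 related genes were called higher, and 0 members and 3 related genes lower. Array weights gave 2 members lower and 7 at an adjusted p under 0.05 (35.6% of all probes), with 17 related genes higher and 4 lower. The methods' t-test, the scan as a block and the analysis within scan 1 each called 0 members and 0 related genes lower. With the scan as a block Adh5 passed the cut-offs at 1.03 and Aldh1a1 missed them at 1.26, so that the count of members called higher was also 3. Normexp called 2 related genes lower, as did the replicate block, which moved no call of a member. Same-numbered rats did not deviate together (r of -0.02, -0.13 and -0.06). Leaving out single rats gave 3 to 4 members higher and 0 to 2 lower, 0 to 6 at an adjusted p under 0.05, 8 to 17 related genes higher and 0 to 4 lower, and a member median of 0.42 to 0.77. The member called lower, Aldh3a1, missed the cut-offs when any rat other than S2 was left out. The probes called higher and lower over the whole table were 776 and 562, 359 and 376 with normexp, 692 and 759 with the 75th percentile, 515 and 178 with the methods' t-test, 551 and 227 with the scan block, 443 and 187 within scan 1, 2000 and 1649 with array weights, 2397 and 1725 without S2, 477 and 192 without S3, and 450 and 478 without S1 and S3. The cause of these shifts was not tested. Within scan 1 and without S1 and S3, 1 strain has a single rat, which is assumed to vary like the others.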
